A study of Mus musculus with 10 samples.

Results

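The genes described here are 34 target genes and regulators of the tumour suppressor p53, measured in the esophageal epithelium of mice, either wild type or with both Hippo kinase genes, Mst1 and Mst2, targeted. They were taken by gene symbol from a table of 56691 genes, and each symbol was found once. Wild-type and knockout groups held 5 libraries each. The knockout animals carried p63CreERT2, a tamoxifen-inducible Cre named for the basal-cell gene p63, with floxed Mst1 and null Mst2 alleles (p63CreERT2;Mst1 loxp/loxp;Mst2-/-). Both groups received tamoxifen, 3 doses of 100 mg/kg spaced by 2 weeks, and RNA was taken at about week 8. The wild-type animals are not described as carrying the Cre allele, so the Cre, the modified alleles and their surroundings cannot be told apart from loss of the kinases. The age, sex and strain are not stated in the labels, nor do they tie libraries to animals, and the p-values therefore cover only the spread among these samples.

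The protein p53 is a transcription factor that cells hold at a low level and stabilise after DNA damage, oncogene activity or other stress. It binds DNA as a tetramer at pairs of a short half-site and activates genes that stop the cell cycle, promote cell death, aid DNA repair or adjust metabolism. One of its targets, Mdm2, encodes the ubiquitin ligase that degrades p53, so the pathway limits itself. In squamous epithelia the related factor p63 binds similar sequences and maintains the basal layer. The genes below are ordered by these roles.

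Values are FPKM, fragments scaled to gene length and sequencing depth, as the authors deposited them. The fragment total behind that scaling was estimated at 13070000 to 16440000 per library. Stk3, the gene of Mst2, averaged 2.62 ± 0.521 FPKM in wild type against 0.134 ± 0.0862 FPKM in knockout (SD, n = 5 and 5). Stk4, the gene of Mst1, averaged 19.3 ± 2.41 against 15.6 ± 2.00 FPKM, a value over the whole gene that is no check of the deleted part. The keratins of this epithelium were abundant in every library, Krt13 at 33902 to 38781 FPKM and Krt4 at 22771 to 30280.4 FPKM. Of 16 markers of fibroblasts, endothelium and muscle, 15 stayed at or below 0.14 FPKM and Col1a2, Cdh5, Kdr and Des were at 0 throughout. The remaining marker, Dcn, fell from 4.42 to 13.6 FPKM in wild type to 0.06 to 1.12 FPKM in knockout. A score of these markers therefore separates the genotypes completely. With it as a covariate limma called 0 of the p53 genes and 7 higher and 8 lower of all genes. At an unadjusted p under 0.05 it gave 5 p53 genes higher and 0 lower, against 383 of all 11386 in either direction. With Dcn left out of the score, an alternative added after seeing the data, 8 of the p53 genes were called higher and none lower. Of all genes 527 were then higher and 395 lower.

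Some of the p53 genes that could be tested were higher in knockout epithelium, while Cdkn1a, the best known target, and Trp53 itself did not pass the test. Of the 34 genes, 30 passed the filter on low values (at least 1 FPKM in at least 5 libraries), and of these 10 were higher, 1 was lower and 19 did not pass (limma on log2(FPKM + 1), Benjamini-Hochberg adjusted p under 0.05 over all 11386 tested genes). The 10 higher genes were Ccng1, Eda2r, Plk2, Ephx1, Sesn2, Ercc5, Bax, Mdm2, Tnfrsf10b and Tigar, at 1.38 to 5.07 times the wild-type mean in FPKM, and the lower gene was Sesn1. Over all tested genes 7.90% were called higher and 4.96% lower, against 33.3% and 3.33% of the tested p53 genes. The list was chosen with earlier results of these data known, so these shares are a description. Eda2r and Tnfrsf10b passed the filter only through the knockout libraries, where they are high. Of the other 28, which passed in wild type too, 8 were called higher, or 28.6%. The log2 fold change, knockout minus wild type, was positive for 24 of the 30 and had a median of 0.28, against 0.06 over all tested genes, of which 58.6% were positive. All knockout libraries lay above all wild-type libraries for 9 of the 30, against 6.62% of all tested genes, and all below for none, against 3.88%. Eda2r and Tnfrsf10b are among the 24 and the 9 and enter the median, so the filter favoured these values. Of all calls 61.4% were higher with FPKM as deposited, 46.5% with median-ratio scaling and 47.9% after quantile normalization, and with either of these 9 p53 genes were higher and 1 lower. With no filter on low values, where 27599 genes were tested, Tnfrsf10b, Sesn1, Tigar and Ephx1 did not pass (limma adjusted p = 0.0573, 0.076, 0.0901 and 0.119), and Bax, Mdm2, Plk2, Sesn2, Ercc5, Ccng1 and Eda2r did. RNA from the whole epithelium cannot tell a change in the number of cells of a type from a change in RNA per cell.

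**Figure D1:**
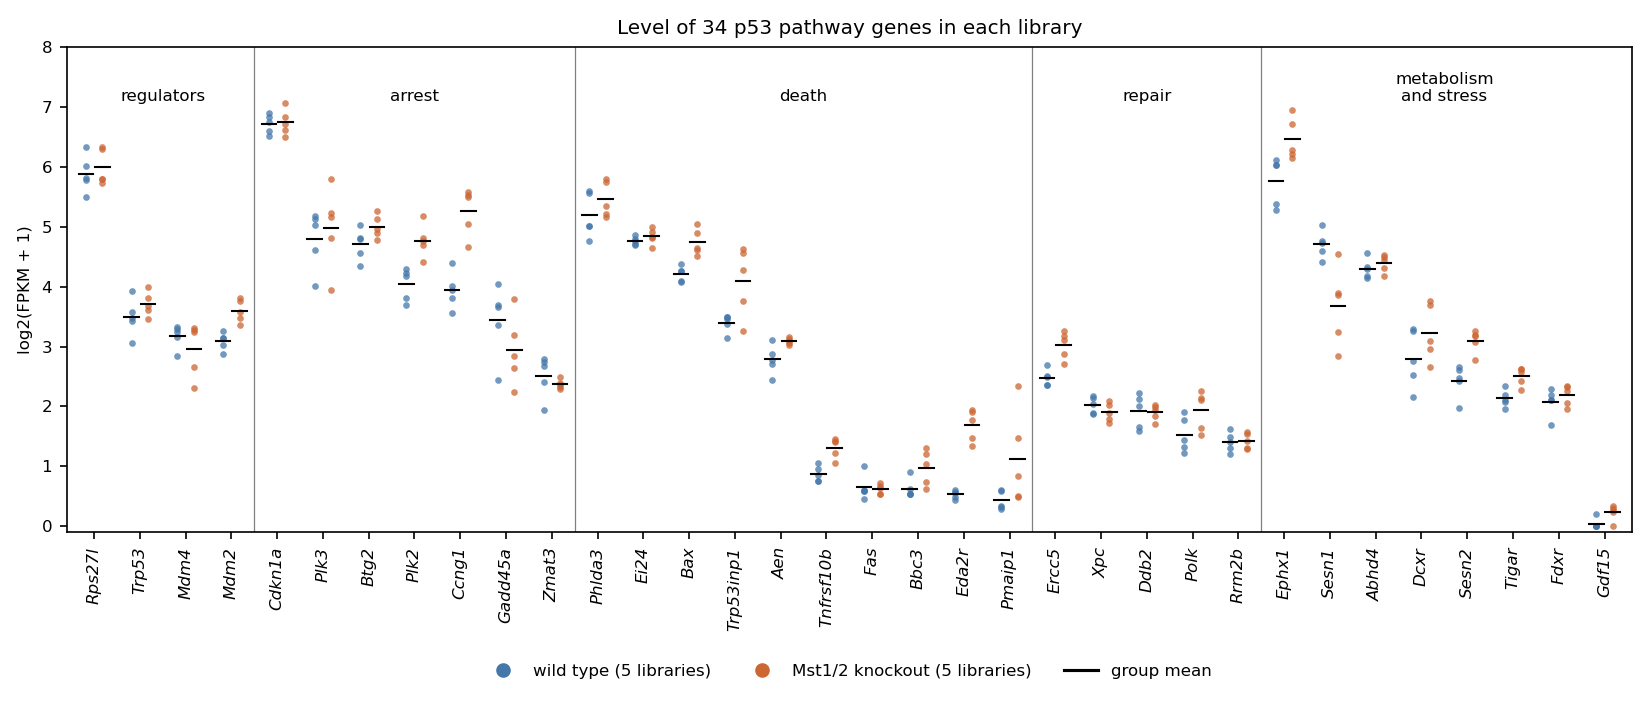
Level of each of the 34 genes as log2(FPKM + 1) on the vertical axis, grouped by role and ordered by wild-type mean, with 1 point per library and a bar at the mean of the 5 libraries of a group. Ccng1 and Eda2r have the knockout points clearly above the wild-type points, and Cdkn1a, at the highest wild-type level of 105 FPKM, has overlapping groups.

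Promoter sequence is shown for 5 of the genes, since p53 acts through DNA sites. They are the higher genes Ccng1, Bax and Mdm2, the lower gene Sesn1, and Cdkn1a. All 5 windows shown hold a full half-site. For Sesn1 and Cdkn1a the window of the other start, which holds none, is not shown. The windows of Eda2r, Plk2, Sesn2, Ercc5 and Ephx1, higher genes without such a site, are not shown either. Each window runs from 250 bases before to 50 after a RefSeq gene start on GRCm38.p6, printed on the strand of the gene. That build is not the mm9 that the submitters name for the expression table, and only these windows carry its coordinates. Capitals mark letters that match the p53 half-site consensus of 10 bases in full, and the best-fitting pair of half-sites up to 13 bases apart, where it fits at least 17 of 20 positions and keeps the fixed C and G of both half-sites. Other pairs that meet this rule are left in lower case, among them one in the Cdkn1a window that lies next to the second half-site in capitals and shares it.
Ccng1, chr11:40755237-40755536, minus strand: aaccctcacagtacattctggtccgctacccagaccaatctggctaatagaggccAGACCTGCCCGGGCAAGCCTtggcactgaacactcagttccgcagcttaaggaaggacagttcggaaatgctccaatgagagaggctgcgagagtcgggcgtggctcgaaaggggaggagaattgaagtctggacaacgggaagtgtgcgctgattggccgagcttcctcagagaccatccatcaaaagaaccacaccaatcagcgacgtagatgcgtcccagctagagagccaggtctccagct
Bax, chr7:45466849-45467148, minus strand: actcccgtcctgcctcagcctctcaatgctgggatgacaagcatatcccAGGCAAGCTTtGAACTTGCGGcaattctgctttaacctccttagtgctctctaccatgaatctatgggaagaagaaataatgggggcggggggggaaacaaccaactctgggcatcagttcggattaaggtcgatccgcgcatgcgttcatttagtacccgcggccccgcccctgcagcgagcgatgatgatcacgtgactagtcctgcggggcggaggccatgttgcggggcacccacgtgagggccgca
Mdm2, chr10:117710709-117711008, minus strand: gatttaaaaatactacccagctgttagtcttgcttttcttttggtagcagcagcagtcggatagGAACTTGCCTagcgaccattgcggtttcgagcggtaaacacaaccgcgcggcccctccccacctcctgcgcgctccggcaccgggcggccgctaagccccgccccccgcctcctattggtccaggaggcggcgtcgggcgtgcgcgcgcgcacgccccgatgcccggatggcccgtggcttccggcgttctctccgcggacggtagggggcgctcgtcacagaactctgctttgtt
Sesn1, chr10:41887189-41887488, plus strand: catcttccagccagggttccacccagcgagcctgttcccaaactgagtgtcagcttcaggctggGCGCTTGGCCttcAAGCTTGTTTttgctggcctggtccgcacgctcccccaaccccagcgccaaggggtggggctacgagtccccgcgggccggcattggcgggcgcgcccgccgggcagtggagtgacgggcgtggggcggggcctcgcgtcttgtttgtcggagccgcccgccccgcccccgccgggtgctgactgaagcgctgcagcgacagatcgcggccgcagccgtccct
Cdkn1a, chr17:29090729-29091028, plus strand: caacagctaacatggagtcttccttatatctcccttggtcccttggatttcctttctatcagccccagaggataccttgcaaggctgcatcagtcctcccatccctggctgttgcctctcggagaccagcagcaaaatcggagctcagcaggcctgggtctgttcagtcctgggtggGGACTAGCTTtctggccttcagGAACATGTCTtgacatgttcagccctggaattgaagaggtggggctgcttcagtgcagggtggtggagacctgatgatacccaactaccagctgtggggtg

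In the Ccng1 window an adjacent pair of half-sites fits 19 of 20 positions and begins at base 56 of the printed run. The Bax window holds a pair with a spacer of 1 base that fits 18 positions. Mdm2 has 1 full half-site in the window of its start. Its known p53 sites lie in the first intron, outside what is shown. The window of one of 2 Sesn1 starts holds a pair that fits 18 positions, and that of one of 2 Cdkn1a starts a pair with a spacer of 12 bases that fits all 20. The consensus equals its own reverse complement, so 1 scan covers both strands. Of 37 windows, which cover 27 of the 34 genes, 13 hold a full half-site and 18 a pair, which is 35.14% and 48.65%, against 8.36% and 15.57% of 32851 windows of all genes. Many of these genes are known as targets because p53 binds near them, so the shares describe the list and are not independent evidence. Eda2r, Plk2, Sesn2, Ercc5 and Ephx1, all higher in knockout, hold neither in the windows searched, and Cdkn1a, whose pair fits all positions, did not pass the test. Also among the higher genes, Tigar holds an adjacent pair that fits 17 positions, and Tnfrsf10b has no window.

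Among p53 and its regulators, Mdm2 rose and the others did not pass. Trp53, the gene of p53, was at 10.9, 7.37, 9.78, 14.3 and 10.1 FPKM in wild-type libraries 1 to 5 and at 14.9, 11.3, 13.01, 9.97 and 11.7 FPKM in knockout libraries 1 to 5. The groups overlap over most of their range, and the log2 fold change of 0.21 (SE 0.15) did not pass (limma adjusted p = 0.381). p53 is controlled mainly as a protein, which these data do not measure.

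Mdm2 was at 7.84, 7.13, 6.38, 8.57 and 7.80 FPKM over wild-type libraries 1 to 5 and 10.9, 13.03, 10.2, 12.6 and 9.26 FPKM over knockout libraries 1 to 5. The lowest knockout library lay above the highest wild-type library. Its mean went from 7.54 ± 0.826 to 11.2 ± 1.59 FPKM (SD, n = 5 and 5), 1.48 times the wild-type mean, and the log2 difference was 0.51 (SE 0.11, adjusted p = 0.0136 by limma). The exact two-sided permutation test over libraries gave p = 0.00794, the smallest that this design allows, as for each of the 9 genes whose groups do not overlap.

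Mdm4, which encodes a relative of Mdm2 that blocks activation by p53, was at 8.79, 8.47, 6.18, 9.07 and 7.94 FPKM in the 5 wild-type libraries, against 8.72, 8.86, 5.33, 8.48 and 3.97 FPKM in the 5 knockout libraries. Knockout libraries 3 and 5 were below all wild-type libraries and the other 3 lay among them (log2 fold change -0.21, SE 0.19; limma adjusted p = 0.495). Rps27l, a ribosomal protein-like gene known as a p53 target from human cells, averaged 59.1 ± 13.1 against 63.7 ± 13.9 FPKM, which did not pass (adjusted p by limma 0.722). Between 0.102 and 0.17 of the 31-base sequences of Trp53, Mdm4, Rps27l, Bax, Tnfrsf10b, Gadd45a and Rrm2b also occur in another gene in GENCODE M21. For Ddb2 the share was 0.206, and reads of these genes may be divided between genes. The count covers both strands and includes genes that overlap at the same place, as for Bax, Gadd45a, Rrm2b and Ddb2. For those genes the shared sequence and the overlap are not separate limits.

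In the arrest group, Ccng1 and Plk2 rose and 5 of 7 did not pass. Cdkn1a encodes p21, the inhibitor of cyclin-dependent kinases through which p53 halts the cycle. It was at 113, 119, 106, 90.4 and 95.4 FPKM over wild-type libraries 1 to 5 and 89.8, 104, 133, 96.8 and 113 FPKM over knockout libraries 1 to 5. It was the most abundant of the 34 genes in both groups, the groups overlapped almost fully, and the mean was 1.02 times that of wild type. The log2 fold change was 0.03 (SE 0.13, adjusted p = 0.91 by limma), and its sign turned with median-ratio scaling (-0.04) and quantile normalization (-0.10).

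Ccng1, which encodes cyclin G1, a partner of protein phosphatase 2A that acts on Mdm2, showed the largest log2 fold change of the tested p53 genes at the pseudocount of 1. At a pseudocount of 0.1 that of Eda2r was larger, 2.08 against 1.37. Ccng1 was at 13.1, 20.1, 15.04, 14.3 and 10.9 FPKM in the 5 wild-type libraries, against 47.1, 44.2, 24.2, 45.4 and 32.1 FPKM in the 5 knockout libraries. Knockout libraries 1, 2 and 4 were above 44 FPKM, and the lowest, knockout 3, was still above the highest wild-type library. The mean went from 14.7 ± 3.43 to 38.6 ± 9.98 FPKM, 2.63 times, and the log2 difference was 1.32 (SE 0.20, adjusted p = 0.00128 by limma).

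Plk2, a polo-like kinase induced by p53 and also by growth factors, was at 18.6, 13.01, 11.9, 17.2 and 17.6 FPKM over wild-type libraries 1 to 5 and 20.2, 27.01, 35.3, 24.8 and 26.01 FPKM over knockout libraries 1 to 5. The groups did not overlap, and knockout 3, which was lowest for Ccng1, was highest here. Its log2 fold change was 0.73 (SE 0.16, adjusted p = 0.0124 by limma).

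The remaining arrest genes overlapped between the genotypes. The antiproliferative gene Btg2 averaged 25.5 ± 4.65 FPKM in wild type against 31.3 ± 4.35 FPKM in knockout (limma adjusted p = 0.176). Plk3, a stress-responsive kinase, averaged 27.9 ± 8.44 against 33.4 ± 14.6 FPKM, with knockout libraries from 14.4 to 54.3 FPKM. Gadd45a, a growth arrest and repair factor, averaged 10.5 ± 4.08 against 7.26 ± 3.55 FPKM, and Zmat3, an RNA-binding zinc finger protein, 4.82 ± 1.27 against 4.17 ± 0.280 FPKM (limma adjusted p = 0.729, 0.352 and 0.578 in that order).

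In the death group, the receptors Eda2r and Tnfrsf10b and the effector Bax rose, and 4 of the 7 tested genes did not pass. Eda2r, the receptor of ectodysplasin A2, was at 0.47, 0.52, 0.48, 0.41 and 0.36 FPKM in the 5 wild-type libraries, against 2.44, 2.77, 1.54, 2.83 and 1.77 FPKM in the 5 knockout libraries. Every knockout library was far above the highest wild-type library, with knockout 3 and 5 the lowest of their group. In fragments, estimated from the exon length in GENCODE M21, this is 35 to 48 per wild-type library and 126 to 231 per knockout library. The mean went from 0.448 ± 0.0630 to 2.27 ± 0.586 FPKM, 5.07 times, and the log2 fold change of 1.16 (SE 0.13, adjusted p = 0.000184 by limma) is held down by the pseudocount of 1.

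Tnfrsf10b, the death receptor for TRAIL, was at 0.68, 0.68, 1.07, 0.95 and 0.80 FPKM over wild-type libraries 1 to 5 and 1.67, 1.65, 1.73, 1.34 and 1.08 FPKM over knockout libraries 1 to 5. The groups did not overlap, though wild type 3 and knockout 5 nearly met. On the log2 scale it rose by 0.44 (SE 0.12, adjusted p = 0.0303 by limma). The call ended without wild type 1 (adjusted p = 0.0757), wild type 5 (0.0738), knockout 1 (0.0688), knockout 2 (0.0645) or knockout 3 (0.0692).

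Bax, which opens the outer mitochondrial membrane, was at 16.1, 19.9, 18.2, 18.1 and 15.97 FPKM in the 5 wild-type libraries, against 28.7, 32.01, 24.1, 21.7 and 23.6 FPKM in the 5 knockout libraries. All knockout libraries were above all wild-type libraries. The mean went from 17.7 ± 1.63 to 26.01 ± 4.22 FPKM, and the log2 difference was 0.52 (SE 0.12, adjusted p = 0.014 by limma). Gm45808 on the same strand overlaps 12.2% of the exon bases of Bax in GENCODE M21, so reads of both may be mixed.

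Trp53inp1, a stress protein that assists p53, had the highest log2 fold change among genes that did not pass, 0.70 (SE 0.23, adjusted p = 0.0676 by limma). Its values were 10.3, 9.35, 10.3, 7.85 and 9.96 FPKM over wild-type libraries 1 to 5 and 18.5, 22.5, 8.53, 23.8 and 12.6 FPKM over knockout libraries 1 to 5. Knockout 3 lay within the wild-type range and the other 4 above it, and without knockout 3 the gene passed (limma adjusted p = 0.00784). Aen, an exonuclease that acts in apoptosis, averaged 5.98 ± 1.19 against 7.54 ± 0.299 FPKM (limma adjusted p = 0.107, and 0.0385 without wild type 4, the highest of its group). Phlda3, an inhibitor of AKT, averaged 36.5 ± 9.68 against 43.7 ± 9.40 FPKM and Ei24, a protein of the endoplasmic reticulum, 26.2 ± 1.29 against 27.7 ± 2.52 FPKM. Neither passed (limma adjusted p = 0.371 and 0.627).

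The classical BH3-only targets and Fas were too low for the filter. Bbc3, the gene of PUMA, was at 0.87, 0.45, 0.46, 0.45 and 0.54 FPKM in the 5 wild-type libraries, against 1.30, 1.06, 0.54, 1.47 and 0.66 FPKM in the 5 knockout libraries. Pmaip1, the gene of NOXA, was at 0.27, 0.51, 0.53, 0.25 and 0.22 FPKM over wild-type libraries 1 to 5 and 4.06, 1.78, 0.42, 0.40 and 0.78 FPKM over knockout libraries 1 to 5, with knockout libraries 1 and 2 high and 3 and 4 within the wild-type range. The death receptor gene Fas was at 1.00, 0.50, 0.37, 0.50 and 0.53 FPKM in wild type, against 0.56, 0.65, 0.45, 0.60 and 0.45 FPKM in knockout, with overlapping groups. With no filter, limma gave adjusted p = 0.235 for Bbc3, 0.285 for Pmaip1 and 0.923 for Fas.

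In the repair group, Ercc5 alone passed of 5 genes tested. Ercc5, which encodes the endonuclease XPG of nucleotide excision repair, was at 4.15, 5.43, 4.63, 4.69 and 4.14 FPKM in the 5 wild-type libraries, against 8.04, 8.57, 6.37, 7.62 and 5.56 FPKM in the 5 knockout libraries. The groups did not overlap, and the gap between wild type 2 and knockout 5 was small. The mean went from 4.61 ± 0.527 to 7.23 ± 1.24 FPKM, and the log2 difference was 0.55 (SE 0.12, adjusted p = 0.0135 by limma).

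The damage recognition genes Ddb2 and Xpc, which act earlier in nucleotide excision repair, did not pass. Ddb2 averaged 2.84 ± 0.727 against 2.75 ± 0.319 FPKM and Xpc 3.09 ± 0.387 against 2.76 ± 0.399 FPKM (limma adjusted p = 0.946 and 0.492). Acp2 on the opposite strand overlaps 23.8% of the exon bases of Ddb2 in GENCODE M21, so reads of both may be mixed. For the arrest gene Gadd45a, E230016M11Rik on the opposite strand overlaps 19.1%. Rrm2b, the p53-inducible subunit of ribonucleotide reductase, averaged 1.67 ± 0.297 against 1.69 ± 0.247 FPKM (limma adjusted p = 0.942). Polk, a polymerase that copies past lesions, averaged 1.94 ± 0.618 against 2.90 ± 0.853 FPKM, which did not pass (adjusted p by limma 0.157).

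The metabolism and stress group held genes that moved in both directions, among them the sestrins, inhibitors of the growth kinase complex mTORC1. Sesn1 fell. It was at 26.2, 31.7, 20.2, 25.5 and 23.1 FPKM over wild-type libraries 1 to 5 and 13.9, 22.3, 6.21, 13.5 and 8.50 FPKM over knockout libraries 1 to 5. Knockout 2 lay within the wild-type range and the other 4 below it. The mean went from 25.3 ± 4.28 to 12.9 ± 6.22 FPKM, and the log2 difference was -1.03 (SE 0.27, adjusted p = 0.0298 by limma). The call ended without wild type 1, 2, 4 or 5 (adjusted p = 0.0692, 0.0535, 0.0505 and 0.0629), without knockout 5 (0.0724), and with the level of clock output genes as a covariate (0.0677).

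Sesn2 rose, from 5.30, 2.92, 4.37, 5.11 and 4.58 FPKM in the wild-type libraries to 5.86, 8.05, 8.13, 8.57 and 7.41 FPKM in the knockout libraries. The groups did not overlap, and knockout 1 was the lowest of its group. It rose by 0.67 on the log2 scale (SE 0.14, adjusted p = 0.0107 by limma). In wild type Sesn1 was the more abundant of the pair per kilobase, at 25.3 against 4.46 FPKM, and in knockout the means were 12.9 and 7.60 FPKM, with Sesn2 above Sesn1 in knockout 3 alone.

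Ephx1, the microsomal epoxide hydrolase that detoxifies reactive epoxides, was at 64.3, 68.3, 37.7, 64.00 and 40.6 FPKM in the 5 wild-type libraries, against 123, 104, 72.9, 76.6 and 69.8 FPKM in the 5 knockout libraries. The groups were separated by the small gap between wild type 2 and knockout 5. The log2 fold change of 0.69 (SE 0.21) passed narrowly (limma adjusted p = 0.0487), and without any single library other than wild type 2 it did not pass, at adjusted p of 0.0511 (without wild type 4) to 0.122 (without wild type 5). It also did not pass after quantile normalization (0.116).

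Tigar, a phosphatase that slows glycolysis, was at 3.23, 2.88, 3.55, 4.06 and 3.32 FPKM over wild-type libraries 1 to 5 and 5.17, 4.96, 4.36, 3.84 and 5.19 FPKM over knockout libraries 1 to 5. Knockout 4 lay below wild type 4 and the groups otherwise did not overlap. The log2 fold change was 0.37 (SE 0.11, adjusted p = 0.0432 by limma), and the call was kept without wild type 4 or knockout 4 and ended without any other single library, at adjusted p of 0.0606 (without wild type 3) to 0.0989 (without knockout 5). It also did not pass with median-ratio scaling (0.0568).

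The other metabolic genes did not pass. The ferredoxin reductase gene Fdxr averaged 3.27 ± 0.634 against 3.59 ± 0.539 FPKM, the carbonyl reductase gene Dcxr 6.26 ± 2.34 against 8.82 ± 3.27 FPKM, and the phospholipase gene Abhd4 18.8 ± 2.27 against 20.1 ± 2.08 FPKM (limma adjusted p = 0.611, 0.297 and 0.626). Gdf15, a stress cytokine, was listed at 0 in 4 wild-type libraries and 1 knockout library and reached 0.27 FPKM, which is an estimated 7 fragments, so it was not tested.

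**Figure D2:**
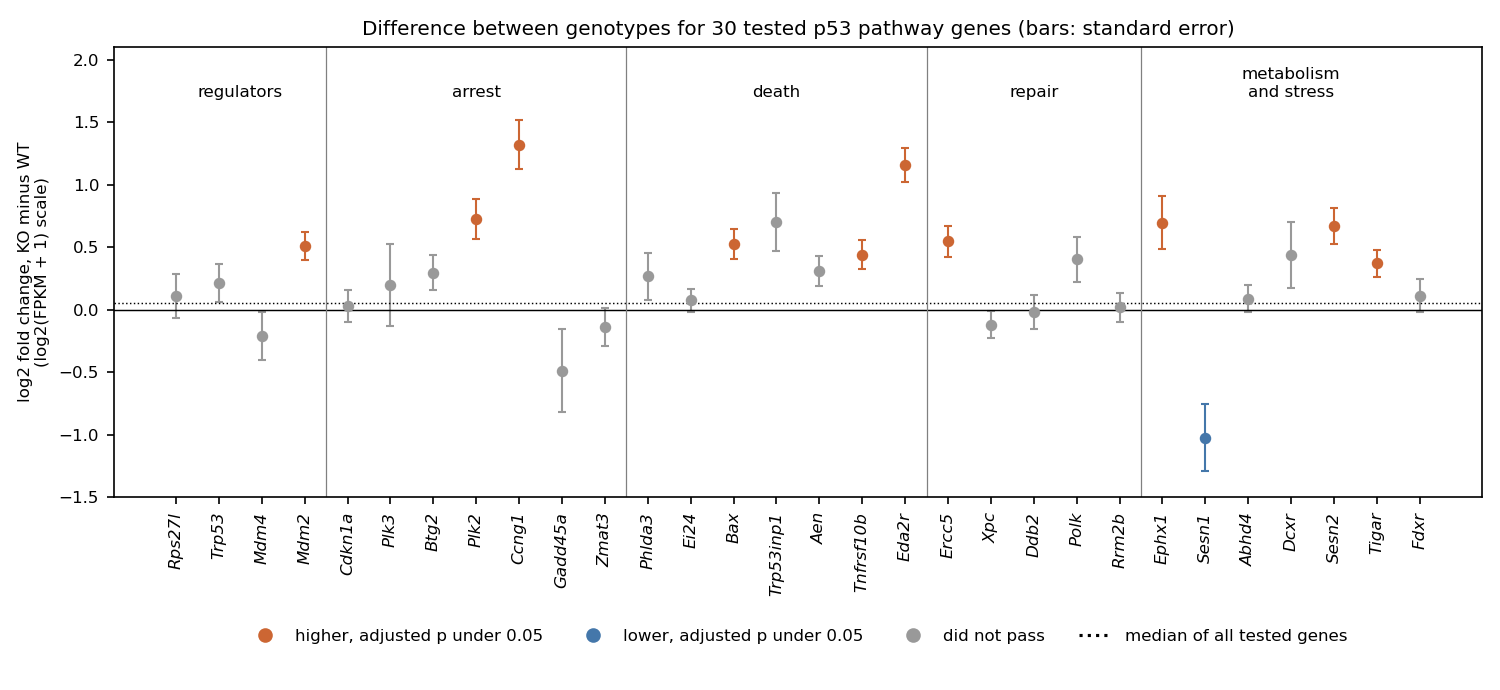
Log2 fold change of the 30 tested genes, knockout minus wild type on the log2(FPKM + 1) scale, with bars for the standard error and colours for the result of the test. The 10 higher genes lie between 0.37 and 1.32 and occur in each role, and Sesn1 is the single lower gene.

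The knockout libraries differed among themselves in these genes. Per library, the median over the 30 tested genes of the deviation from the gene's median over all libraries lay at -0.18 to -0.02 for wild-type libraries and at 0.02 to 0.23 for knockout libraries (log2 units), against -0.06 to 0.04 and -0.02 to 0.09 over all tested genes. Knockout 1, 2 and 4 were at 0.15, 0.23 and 0.11, and knockout 3 and 5 both at 0.02. For 15 of the 30 genes, or 50%, knockout 3 and 5 were the lowest pair of their group, against 23.7% of all tested genes. These included Ccng1, Eda2r, Mdm2, Ercc5, Ephx1, Trp53inp1, Polk, Sesn1 and Mdm4, and the pair was chosen after its values were seen. Knockout 3 and 5 were the highest pair for Cdkn1a and Plk3.

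Knockout 3 and 5, and also knockout 2, were high in immediate early genes, which respond to handling and to cell stimulation. The mean log2 value of these genes was 3.99 and 4.09 in knockout 3 and 5, 3.63 in knockout 2, 3.03 and 3.16 in knockout 1 and 4, and 2.80 to 3.13 in wild type. Egr1, which encodes an immediate early transcription factor, was at 10.3, 15.95, 32.4, 6.28 and 30.4 FPKM in knockout libraries 1 to 5 and at 3.02 to 7.84 FPKM in wild type. Fos was highest in knockout 2, at 5.86, 20.2, 11.8, 4.40 and 15.6 FPKM in knockout libraries 1 to 5. Of 10 immediate early genes 8 were tested and 4 rose, or 50% against 7.90% of all tested genes, namely Zfp36, Junb, Fos and Egr1 (limma adjusted p = 0.0196, 0.0278, 0.0305 and 0.0349). Their summed level ran from 114 to 158 FPKM in wild type and from 143 to 265 FPKM in knockout. With their mean log2 value as a covariate, an alternative added after seeing the data, Ccng1, Eda2r and Ercc5 kept their call among the 11 genes called (limma adjusted p = 0.00231, 0.000786 and 0.0309). The other 8 lost it, Trp53inp1 gained one (0.022), and calls over all genes fell to 138 higher and 126 lower. Of the 8, the log2 fold change with the covariate was smaller for Sesn1 (-0.55 against -1.03 without it), Plk2 (0.40 against 0.73), Sesn2 (0.51 against 0.67) and Tigar (0.29 against 0.37). It was not smaller for Mdm2 (0.61 against 0.51), Bax (0.58 against 0.52), Tnfrsf10b (0.50 against 0.44) and Ephx1 (0.92 against 0.69). The part of the immediate early genes in the result was not tested.

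The clock output gene Dbp, which cycles over the day, was at 22.6, 12.04, 1.25, 16.4 and 1.73 FPKM in wild-type libraries 1 to 5 and 14.5, 8.45, 0.84, 0.56 and 0.38 FPKM in knockout libraries 1 to 5, so both groups hold high and low libraries. With the mean of 4 clock output genes as a covariate, 11 of the p53 genes were higher and none lower. Over all 11386 tested genes 882 were then higher and 485 lower. Of the p53 genes, Sesn1 and Tigar lost their call, and Polk and Dcxr were called higher (limma adjusted p = 0.0265 and 0.00842). Of 8 immune markers, 2 were tested, 0 passed with limma and 1 had an unadjusted p under 0.05, as had between 3249 and 3513 of all 11386 tested genes. The summed level of the markers was 7.89 to 16.2 FPKM in wild type against 10.99 to 19.4 FPKM in knockout.

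**Figure D3:**
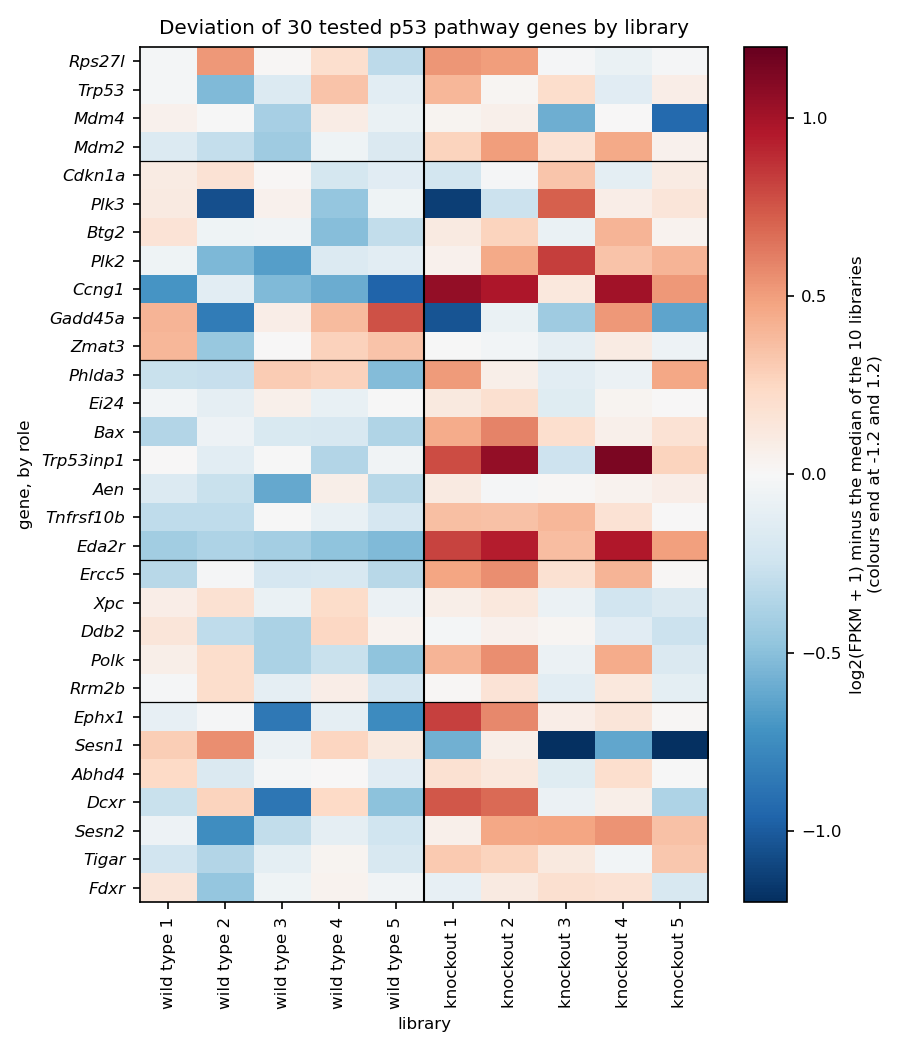
Deviation of log2(FPKM + 1) from the median of the 10 libraries for each of the 30 tested genes (rows, by role) in each library (columns). Red is above and blue below the median; Ccng1, Eda2r and Trp53inp1 are reddest in knockout 1, 2 and 4, and Sesn1 is bluest in knockout 3 and 5.

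Of 51 other genes of the pathway 46 were tested, and 4 rose and 3 fell. In the main fit this is 8.70% and 6.52% of those tested, near the 7.90% and 4.96% of all tested genes. The count depends on the setting. Without wild type 3, 8 rose and 3 fell, against 795 and 575 of all tested genes. A fit with the replicate number as a block, given at the end, also called more of them higher. Of 23 further p53 targets 20 were tested, and 3 rose and 2 fell, with a median log2 fold change of 0.10. Psrc1, a spindle protein gene, was at 2.29, 2.67, 3.57, 2.22 and 2.69 FPKM in the 5 wild-type libraries, against 6.26, 5.42, 6.56, 6.42 and 5.09 FPKM in the 5 knockout libraries (limma adjusted p = 0.000395). Apaf1, the scaffold of the apoptosome, was at 0.65, 0.70, 0.77, 0.77 and 0.61 FPKM in wild type, against 1.75, 1.64, 1.37, 1.65 and 1.43 FPKM in knockout (limma adjusted p = 0.00216). Ak1, an adenylate kinase, was at 0.97, 1.18, 0.78, 1.33 and 0.70 FPKM in wild type, against 2.33, 2.72, 2.14, 2.65 and 1.74 FPKM in knockout (limma adjusted p = 0.00305). For all 3 genes each knockout library lay above every wild-type library, and Apaf1 and Ak1 passed the filter only with the help of the knockout libraries.

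The targets that fell were Perp and Cgref1. Perp, a desmosome component that p63 also activates, was at 1982, 2707, 2465, 2317 and 2306 FPKM over wild-type libraries 1 to 5 and 1718, 1699, 1458, 1485 and 1535 FPKM over knockout libraries 1 to 5, and the log2 difference was -0.57 (SE 0.13, adjusted p = 0.0154 by limma). Cgref1, a secreted growth regulator, was at 18.3, 20.1, 24.9, 19.00 and 30.96 FPKM in the 5 wild-type libraries, against 13.3, 11.03, 14.1, 13.7 and 13.6 FPKM in the 5 knockout libraries, and as for Perp the groups did not overlap (limma adjusted p = 0.00683). Zfp365 was too low to be tested, and had 0.04 to 0.2 FPKM in wild type and 0.52 to 0.69 FPKM in knockout, with no overlap.

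Of 16 activators and partners of p53 15 were tested, and 1 rose and 1 fell. Ppm1d, which encodes the phosphatase WIP1 that dampens the damage response and is itself a p53 target, was at 15.7, 17.6, 15.2, 13.01 and 15.9 FPKM over wild-type libraries 1 to 5 and 21.8, 24.2, 29.5, 22.2 and 22.6 FPKM over knockout libraries 1 to 5. The groups did not overlap, and the log2 fold change was 0.60 (SE 0.11, adjusted p = 0.00437 by limma). Trp63 fell from 38.4, 38.1, 31.2, 46.5 and 39.97 FPKM in the wild-type libraries to 27.9, 23.4, 22.6, 20.9 and 18.2 FPKM in the knockout libraries (-0.76, SE 0.13; limma adjusted p = 0.00293). Since p63CreERT2 bears the name of this gene, allele and kinase loss cannot be told apart here. The damage kinases Atm and Atr did not pass, with means of 1.79 ± 0.308 against 2.07 ± 0.573 FPKM for Atm and 0.946 ± 0.167 against 1.14 ± 0.181 FPKM for Atr (adjusted p by limma 0.6 and 0.422). Chek1, a kinase they activate, averaged 0.986 ± 0.648 against 1.95 ± 0.412 FPKM (0.0568). Cdkn2a, which encodes the p53 activator ARF, did not exceed 0.12 FPKM.

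Genes that p53 represses through p21 and the DREAM complex, which act in mitosis or DNA replication, gave no call in the main fit. Of 12 listed 11 were tested, 0 passed with limma and 5 had an unadjusted p under 0.05. Such a p was found for between 3249 and 3513 of all 11386 tested genes. All 11 of the list had a positive log2 fold change, against 58.6% of all tested genes, and the list median was 0.68. Cdc25c, Foxm1 and Bub1 passed the filter only with the help of the knockout libraries, which favours a positive sign for them. Birc5, the gene of survivin, averaged 2.96 ± 1.44 FPKM in wild type against 5.49 ± 1.65 FPKM in knockout (limma adjusted p = 0.0688), the smallest adjusted p of the list.

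**Figure D4:**
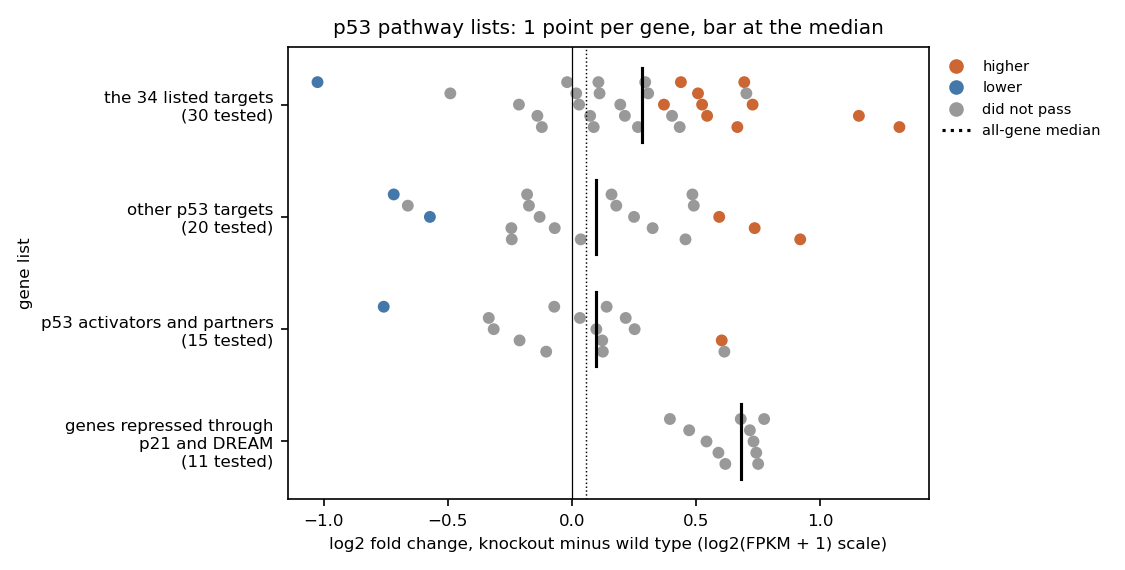
Log2 fold change, knockout minus wild type, of each tested gene in the list of 34 and in 3 further p53 pathway lists, with 1 point per gene and a bar at the median of the list. The medians are 0.28, 0.10, 0.10 and 0.68, and the dotted line is the median of all tested genes, 0.06.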

How the data were processed

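The authors deposited 1 table of FPKM values with 2 decimals, for 56691 Ensembl gene IDs paired with symbols. The tools named in the submitters' processing notes are cutadapt, HISAT2 2.0.1 and HTSeq 0.6.1, and the build is mm9. Annotation, strand setting and scaling total remain not given in the sources used here. Per the labels, the epithelium was freed of muscle and, after Dispase, of mesenchyme, and libraries were sequenced from both fragment ends.

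FPKM are not counts, so no count model was fitted. Values were tested as log2(FPKM + 1), which understates changes of low genes, for 11386 genes that reached 1 FPKM in 5 or more libraries. All 10 libraries entered a limma 3.58.1 model (R 4.3.3) of genotype alone, with trended, robust empirical Bayes. Adjustment was by Benjamini and Hochberg across the tested genes, at a threshold of 0.05. Single genes were also compared with an exact permutation test over libraries. The model was tested on simulated data. The fragment total of a library is the value at which FPKM of single-exon genes up to 1200 bases long become whole fragments. Of these, 98.2% to 98.6% were whole within 0.01 beyond rounding. Exon lengths, shared sequences and overlaps came from GENCODE M21 (GRCm38), and promoters from RefSeq on GRCm38.p6. The genes and lists were chosen with earlier results of these data known. Each called gene of the 34 and of the other pathway lists, with Trp53, Mdm4 and Cdkn1a, is given by library, and the other genes by mean or range or, of the immediate early genes, by example; Bbc3, Pmaip1, Fas, Trp53inp1, Zfp365, Atm, Atr, Chek1, Cdkn2a, Birc5 and Dbp were added after their values were seen. Alternatives were other pseudocounts, filters, scalings, variance models, weights, covariates, a replicate block and each library left out. Same-numbered libraries are not stated to be paired. Figures were drawn with matplotlib 3.10.9.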

Additional observations from a re-analysis of the deposited data

Results flagged for a closer look

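A library far from the other 4 of its group, by Dixon's test at the 95% level, was found in 4 of 82 group comparisons among the genes described, where chance gives about 1 in 20. In wild type 1, Bbc3 was at 0.87 FPKM where the rest of wild type had 0.45 to 0.54 FPKM, and Fas was at 1.00 FPKM, the rest at 0.37 to 0.53 FPKM. Gdf15 was at 0.15 FPKM in wild type 4 and listed at 0 in the other 4. Cgref1 was lowest in knockout 2, at 11.03 FPKM, with the rest of knockout at 13.3 to 14.1 FPKM. The first 3 genes lie below the filter and rest on few fragments.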

How the results depend on the processing

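The main counts were 10 higher and 1 lower of the 30 tested p53 genes, 4 higher and 3 lower of the 46 other pathway genes and 900 higher and 565 lower of all genes. Ccng1, Eda2r, Mdm2, Plk2, Bax, Ercc5 and Sesn2 kept their call without any single library. Leaving out 1 library at a time gave 7 to 10 p53 genes higher and 0 to 1 lower, 4 to 8 and 3 to 4 other pathway genes, and 436 to 1091 and 357 to 679 of all genes, with both of the lowest counts of all genes without wild type 5. Other pseudocounts, scalings and variance models left 9 or 10 of the p53 genes higher and 1 lower. A filter at 5 FPKM left 21 of the p53 genes and 6510 of all genes to test. It called 7 and 1 p53 genes, 2 and 3 of 20 other pathway genes, and 686 and 329 of all genes. Eda2r, Tnfrsf10b and Tigar were not tested there, and the other called p53 genes kept their call. With no filter, all 34 p53 genes and 27599 of all genes were tested. That fit called 7 and 0 p53 genes, and 511 of all genes were higher, 52.3% of its calls. Sample quality weights gave 1390 of all genes higher.

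With the clock covariate 11 p53 genes were higher and 0 lower, and of all genes 882 and 485. With the stroma covariate, which separates the genotypes completely, 0 and 0 p53 genes, 0 and 0 other pathway genes and 7 and 8 of all genes were called. Without Dcn in that score, 8 and 0 p53 genes were called and 527 of all genes were higher. With the immediate early covariate these counts were 4 and 0 p53 genes, 3 and 0 other pathway genes and 138 and 126 of all genes. Both of the last were chosen after seeing the data, and the cause of each change was not tested. Same-numbered libraries correlated in their deviations at -0.24 to 0.42, so the numbers were not taken as pairs. The fit with the replicate block gave 9 and 1 p53 genes, 13 and 4 other pathway genes and 773 and 551 of all genes. Its other pathway genes were not divided by list.

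Among genes that did not pass, some log2 fold changes turned sign. Mdm4 was at 0.049 with the clock, 0.50 with the stroma and 0.24 with the immediate early covariate. Rps27l was at -0.0038 after quantile normalization and -0.56 with the stroma covariate. Cdkn1a was at -0.040 with median-ratio scaling, -0.10 after quantile normalization, -0.029 with the clock, -0.56 with the stroma and -0.18 with the immediate early covariate, and at -0.051 to 0.089 without single libraries. With the stroma covariate Gadd45a was at 1.51, Zmat3 at 0.64 and Phlda3 at -0.40. Plk3 was at -0.14 with the clock and -0.44 with the immediate early covariate, Ei24 at -0.0050 after quantile normalization and Rrm2b at -0.026 with median-ratio scaling. Ddb2 was at 0.10 with the clock, 0.57 with the stroma and 0.016 with the stroma score without Dcn. Without single libraries Plk3 ranged from -0.0059 to 0.45, Ddb2 from -0.10 to 0.056 and Rrm2b from -0.031 to 0.071. Depth limits the lowest genes, Bbc3, Pmaip1, Fas, Gdf15 and Eda2r in wild type, which rest on fewer than 50 fragments in each wild-type library.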
